A study of Mus musculus with 16 samples.

Results

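The regions described here are 10838 stretches of open chromatin near the starts of mouse genes that were found in the dentate gyrus (DG) of every one of 8 mice. The peaks of the 8 libraries, 590330 in all, were merged into 150252 regions, of which 25604 held a peak of every library. Of these, 10838 lay within 1 kb of a transcription start site (TSS) of at least 1 gene outside the families of ribosomal protein, mitochondrial ribosomal protein, respiratory chain and proteasome genes. They are called promoter regions below. The remaining shared regions were 195 promoter regions of those housekeeping families alone, 5786 regions between 1 and 20 kb from a TSS and 8785 regions beyond 20 kb.

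The tissue was microdissected DG from 4 WT mice (genotype VV of *Nrg1*) and 4 mice homozygous for the V321L mutation (genotype LL), with 2 females and 2 males of each genotype. The tissue was frozen before nuclei were isolated, and 1 Multiome library per mouse measured gene expression and open chromatin in the same nuclei. V321L is a missense mutation of *Nrg1* that all cells of the mutant mice carry, and it disrupts the signaling of Nrg1 in the nucleus. The labels give neither ages nor littermates, so each mouse was treated as 1 replicate. The comparisons below ask whether promoter accessibility differed between classes of nuclei, and whether it moved with the RNA in V321L granule cells (GCs).

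A promoter is the stretch of DNA at which the transcription machinery assembles, and most promoters of active mammalian genes lie in a nucleosome-depleted gap that the transposase of ATAC-Seq can enter. Many promoters rich in CpG dinucleotides are open in most cell types, including cells in which the gene gives little RNA, whereas regions far from genes tend to be open in fewer cell types. GCs are the principal excitatory neurons of the DG and carry the transcription factor Prox1 as their usual marker.

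The regions lay near 12408 of the 32285 genes of the annotation (38.4%). A single gene had its TSS within 1 kb of 8501 regions (78.4%), while 2282 regions served 2 genes and 55 served 3 or more. The TSS lay inside 9919 regions (91.5%), and the other 919 lay at a median distance of 440 bp. The median width was 958 bp, with a range of 500 to 2502 bp, and 338 regions were on the X chromosome. The covered width of a region differed little between the 8 libraries, with a median ratio of 1.08 between the widest and the narrowest library. These 2 differed by less than 1.2 times in 9060 regions.

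The sequences of these regions were read from the RefSeq promoter table, in which each entry runs from 250 bases before to 50 bases after the start of a gene (300 bases, mouse build GRCm38.p6). Of 26760 entries, 8340 lay in one of the regions, and 93.6% of the entries whose symbol was also in the deposited gene list had their start within 1 kb of the TSS given there. The entries below are those of genes on which the later results turn, printed 5′ to 3′ in the direction of the gene. Capitals mark any match to 7 short motifs on either strand. TATAAA was searched as the TATA box and CCAAT under its own name. GGGCGG, the GC box, is bound by Sp1 and related KLF factors, and CCGGAAG by factors of the ETS family. TGACGTCA is the cyclic AMP response element (CRE), and GCGCATGC and AAGATGGC are parts of the motifs of the factors NRF1 and YY1. The letters of none of the 7 contain those of another. The first is the promoter of the only region called between the genotypes, *Mpst*, at chr15:78406462-78406761 on the plus strand, with no match.

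Mpst: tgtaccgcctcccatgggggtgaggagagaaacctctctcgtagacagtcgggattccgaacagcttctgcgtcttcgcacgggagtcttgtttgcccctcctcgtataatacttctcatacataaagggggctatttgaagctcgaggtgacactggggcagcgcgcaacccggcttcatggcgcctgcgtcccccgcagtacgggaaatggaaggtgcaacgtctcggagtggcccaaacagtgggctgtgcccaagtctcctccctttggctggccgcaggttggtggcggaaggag

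The next pair belongs to X-linked genes whose regions had more ATAC counts in females. *Kdm6a* lies at chrX:18162325-18162624 and *Ddx3x* at chrX:13280772-13281071, both on the plus strand, and each holds 1 GC box.

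Kdm6a: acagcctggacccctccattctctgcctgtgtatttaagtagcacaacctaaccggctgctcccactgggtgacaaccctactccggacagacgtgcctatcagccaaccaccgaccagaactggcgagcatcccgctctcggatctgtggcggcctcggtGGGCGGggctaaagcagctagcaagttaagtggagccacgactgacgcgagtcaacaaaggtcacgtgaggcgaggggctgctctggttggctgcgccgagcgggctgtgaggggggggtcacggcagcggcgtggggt
Ddx3x: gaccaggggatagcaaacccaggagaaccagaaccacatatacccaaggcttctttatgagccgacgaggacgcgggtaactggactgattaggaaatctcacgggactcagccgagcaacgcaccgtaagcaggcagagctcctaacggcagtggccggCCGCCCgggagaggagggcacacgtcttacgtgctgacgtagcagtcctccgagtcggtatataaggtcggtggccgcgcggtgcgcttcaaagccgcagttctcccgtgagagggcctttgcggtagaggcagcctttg

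The following 4 were taken from the 6 regions named in each direction of the comparisons between GCs and glia. *Fam163b* (chr2:27142428-27142727, minus strand) and *Arhgef7* (chr8:11727808-11728107, plus strand) were higher in GCs, while *Id3* (chr4:136143572-136143871, plus strand) was higher in astrocytes and *Ptgds* (chr2:25469700-25469999, minus strand) in oligodendrocytes. *Arhgef7* holds 5 GC boxes and 54 CpG dinucleotides, whereas *Ptgds* holds 2 CpG dinucleotides and no motif match.

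Fam163b: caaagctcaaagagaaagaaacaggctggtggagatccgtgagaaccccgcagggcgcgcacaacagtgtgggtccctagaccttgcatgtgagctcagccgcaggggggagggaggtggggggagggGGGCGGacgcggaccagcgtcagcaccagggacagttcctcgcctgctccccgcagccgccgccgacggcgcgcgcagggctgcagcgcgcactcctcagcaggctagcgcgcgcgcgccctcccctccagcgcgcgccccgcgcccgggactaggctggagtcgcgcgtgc
Arhgef7: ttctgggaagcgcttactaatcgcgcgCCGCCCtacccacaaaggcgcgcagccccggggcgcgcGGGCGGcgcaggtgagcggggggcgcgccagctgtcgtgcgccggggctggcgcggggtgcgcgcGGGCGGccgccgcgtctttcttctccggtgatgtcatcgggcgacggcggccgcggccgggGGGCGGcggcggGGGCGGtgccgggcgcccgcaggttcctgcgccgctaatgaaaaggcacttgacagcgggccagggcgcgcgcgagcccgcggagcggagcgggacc
Id3: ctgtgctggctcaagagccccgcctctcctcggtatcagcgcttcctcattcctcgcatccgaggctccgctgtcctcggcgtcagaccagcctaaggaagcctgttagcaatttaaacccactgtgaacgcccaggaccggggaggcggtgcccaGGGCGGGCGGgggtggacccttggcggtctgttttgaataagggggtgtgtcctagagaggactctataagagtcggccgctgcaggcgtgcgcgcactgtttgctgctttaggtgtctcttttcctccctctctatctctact
Ptgds: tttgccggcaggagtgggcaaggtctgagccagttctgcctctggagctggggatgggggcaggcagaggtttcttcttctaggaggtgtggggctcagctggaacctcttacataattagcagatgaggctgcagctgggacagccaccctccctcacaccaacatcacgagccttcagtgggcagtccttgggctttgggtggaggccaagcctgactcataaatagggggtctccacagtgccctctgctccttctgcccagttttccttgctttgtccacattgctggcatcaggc

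The last 3 belong to genes among the 8 largest RNA rises and the 8 largest falls in V321L GCs. *Mif* (chr10:75860228-75860527, minus strand) and *Timm13* (chr10:80900920-80901219, minus strand) rose, and *Slc8a1* (chr17:81738338-81738637, minus strand) fell. *Mif* holds 1 CRE and 2 GC boxes, *Timm13* a TATA box letter match and a part of the NRF1 motif, and *Slc8a1* none.

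Mif: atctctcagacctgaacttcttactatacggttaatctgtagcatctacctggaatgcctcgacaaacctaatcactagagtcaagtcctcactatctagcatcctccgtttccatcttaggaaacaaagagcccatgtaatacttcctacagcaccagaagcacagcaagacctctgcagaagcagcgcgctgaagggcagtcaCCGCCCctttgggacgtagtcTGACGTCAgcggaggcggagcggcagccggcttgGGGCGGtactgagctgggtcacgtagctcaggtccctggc
Timm13: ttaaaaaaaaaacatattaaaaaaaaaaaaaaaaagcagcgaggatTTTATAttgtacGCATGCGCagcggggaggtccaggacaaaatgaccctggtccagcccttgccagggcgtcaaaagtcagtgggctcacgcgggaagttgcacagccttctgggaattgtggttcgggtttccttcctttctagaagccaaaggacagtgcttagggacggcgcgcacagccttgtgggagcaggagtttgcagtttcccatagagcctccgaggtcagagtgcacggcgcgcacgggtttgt
Slc8a1: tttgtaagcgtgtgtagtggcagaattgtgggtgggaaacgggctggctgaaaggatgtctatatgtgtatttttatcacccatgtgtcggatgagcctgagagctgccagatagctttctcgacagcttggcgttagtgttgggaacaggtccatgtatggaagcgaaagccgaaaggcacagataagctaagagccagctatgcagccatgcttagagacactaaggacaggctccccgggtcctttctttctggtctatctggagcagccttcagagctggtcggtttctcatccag

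The promoters in the regions were rich in G, C and CpG. Their median GC content was 62.3%, against 48.7% in the 18420 promoters outside them, and their median ratio of observed to expected CpG was 0.813 against 0.241. The GC box was found in 70.4% of the promoters in the regions, against 20.1% of those outside and 35.8% of all 26760. ETS letters were found in 20.9% against 3.48% (8.91% of all), the CRE in 4.08% against 0.847% (1.85% of all), NRF1 letters in 6.57% against 1.004% (2.74% of all) and YY1 letters in 5.20% against 1.70% (2.80% of all). The TATA box went the other way, with 5.48% in the regions and 18.2% outside (14.2% of all). The CCAAT box differed least, with 40.9% against 36.6% (37.9% of all). Promoters in the quartile of regions with the most ATAC counts in GCs had a CCAAT box in 53.0% and a GC box in 78.5%, against 35.5% and 59.9% in the quartile with the fewest. These are shares of letter matches, which follow base composition, and no test was run on them.

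**Figure D1:**
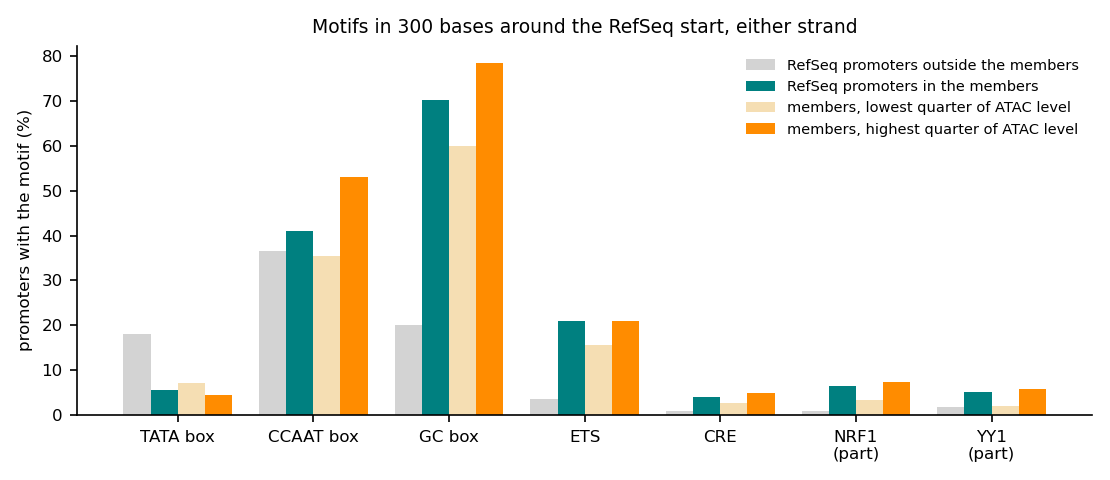
Share of RefSeq promoters of 300 bases that hold each of 7 motifs on either strand (y axis, %), for promoters outside the 10838 regions, promoters in them, and promoters in the regions with the lowest and the highest quartile of ATAC counts in GCs. The GC box stands at 70.4% in the regions and 20.1% outside, and the TATA box at 5.48% and 18.2%.

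The libraries held between 4326426 and 23582057 RNA UMIs (unique molecular identifiers), between 6580616 and 25552769 ATAC counts and between 36556 and 130470 peaks. Of 17015 nuclei within the limits of the study, 10705 were put in the GC class by marker UMIs, and 8848 of these had at least 1000 ATAC counts in shared regions. Each nucleus was thinned at random to 1000 such counts, so that the level of a region (ATAC CPM, its counts relative to all counts in shared regions) also equals its counts per 1000 nuclei. The counts of a region in a library were those of the library's own peaks in it. A library with narrower peaks was therefore counted over fewer bases. GC markers made up 91.5% to 94.2% of the marker UMIs of these GCs in WT mice and 88.6% to 92.2% in V321L mice. Oligodendrocyte markers made up 0.845% to 1.502% in WT mice and 1.96% to 3.85% in V321L mice, and at most 13 barcodes were shared between any 2 libraries. Between 81.9% and 88.6% of the ATAC values from 1 to 4 were even, so counts came mostly in pairs, as the 2 ends of a fragment do. Errors from counting alone would therefore be too small.

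In GCs the promoter regions took most of the ATAC counts in shared regions. Their share was 59.8% in WT F1, 59.1% in WT F2, 61.6% in WT M1 and 60.1% in WT M2, and 58.7% in V321L F1, 58.5% in V321L F2, 61.7% in V321L M1 and 58.3% in V321L M2. The highest value of each genotype was that of M1, the library with the most ATAC counts in WT and in V321L, and the genotypes overlapped. WT mice had a mean of 60.1% ± 1.07 and V321L mice one of 59.3% ± 1.60 (SD, 4 mice per genotype), a difference of -0.860 percentage points (two-sided exact permutation test, p = 0.4, adjusted over 4 kinds of region p = 0.486). The smallest p that 4 against 4 mice allow is 0.0286. Without V321L M1 the difference was -1.65 points (exact p = 0.0571), and without WT M1 it was -0.368.

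The share was higher in the other classes of nuclei from the same mice. It was 75.4% ± 3.07 in astrocytes (SD, n = 8 mice, 629 nuclei), 78.1% ± 2.41 in oligodendrocytes (n = 7 mice, 529 nuclei) and 75.6% ± 2.11 in GABAergic neurons (n = 3 mice, 41 nuclei), against 59.7% ± 1.34 in GCs (n = 8 mice). Astrocytes were above the GCs in 8 of 8 mice (two-sided exact sign-flip permutation test, p = 0.00781), and oligodendrocytes in 7 of 7 (exact p = 0.0156). GABAergic neurons were above them in 3 of 3, where the exact p of 0.25 is the smallest that 3 mice allow. Regions beyond 20 kb took 22.3% ± 0.863 of the counts in GCs, 10.8% ± 2.21 in astrocytes and 8.78% ± 1.64 in oligodendrocytes. Peaks were called on all nuclei of a library, most of which were GCs, so regions open only in a rarer class can be missing, and this choice of regions cannot be told apart from a difference between the classes.

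**Figure D2:**
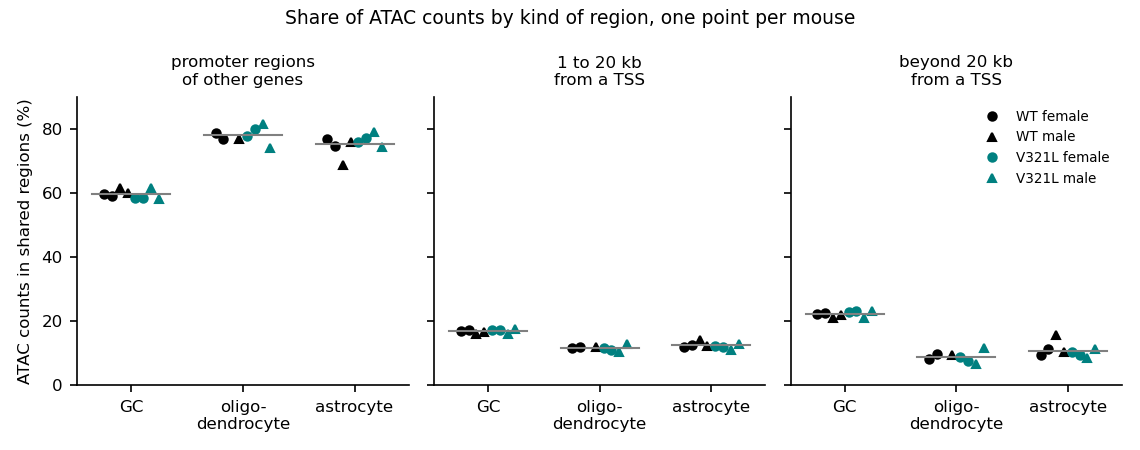
Share of thinned ATAC counts in shared regions (y axis, %) that fell in promoter regions of other genes, in regions 1 to 20 kb from a TSS and in regions beyond 20 kb, for GCs, oligodendrocytes and astrocytes. Each point is a mouse and the grey line the mean over mice. Promoter regions stand at 59.7% in GCs, 78.1% in oligodendrocytes and 75.4% in astrocytes, with black (WT) and teal (V321L) points mixed.

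Levels differed widely among the promoter regions. The median was 48.5 ATAC CPM in GCs, with 90% of the regions between 14.7 and 116 (5th and 95th percentiles). The median was 54.8 ATAC CPM for housekeeping promoters, 24.8 for regions 1 to 20 kb from a TSS and 22.1 beyond 20 kb. The 4 highest were the regions of *AC149090.1* (mean 1193 ATAC CPM), *Gm10800* (1063), *Gm26917* (502) and *Gm10801* (336). That of *AC149090.1* lies on the sequence JH584304.1 and not on a named chromosome. No filter for repeats or mapping errors was applied, so whether these 4 levels reflect open promoters was not tested. *Gm10800* spread from 198 in the lowest mouse to 2377 in the highest, *Gm10801* from 48.9 to 726 and *Gm26917* from 258 to 906, while *AC149090.1* lay between 948 and 1519. Next came *Khsrp*, which encodes an RNA-binding splicing factor, at 238 (lowest 214, highest 267), the small GTPase gene *Rap2a* at 238 (206 to 291) and *Sp1*, which encodes the factor that binds GC boxes, at 236 (180 to 283). Among genes with enough RNA to be tested, the level followed the amount of RNA only loosely. Of 8118 genes with a region of their own, 6720 were tested in both RNA and ATAC, and genes with too little RNA were left out. Among the 6720, the median ATAC level in WT GCs was 43.1 CPM in the quartile with the least RNA and 56.0 in the quartile with the most. The median RNA of these quartiles was 6.92 and 142 CPM (Spearman correlation across genes 0.16, a description only, since genes share the libraries).

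Between V321L and WT GCs, 1 of 10688 promoter regions tested passed the threshold (edgeR quasi-likelihood test, adjusted p under 0.05). It was higher in V321L, and 0 were lower. Over all 24723 shared regions tested, 0.0121% were higher and 0.00809% lower. At an unadjusted p under 0.05 there were 739 promoter regions (6.91%, against 6.80% of all shared regions), 299 higher and 440 lower. DESeq2 called 1 region, another one (*AC149090.1*, lower), and had 440 at an unadjusted p under 0.05. The estimated change had a median of -0.02 on the log2 scale and lay between -0.34 and 0.37 in 90% of the regions, with a median SE of 0.18. For 10299 regions (96.4%) the estimate ± 2 SE lay within 1 of 0. Data were simulated at the same depth with rises in 200 shared regions and the same dispersion (0.0142) for every region. In these, 86.5% of changes of 1 on the log2 scale were recovered and 6% of changes of 0.5, so a change of 0.5 was mostly not detectable here. These shares need not hold for regions that vary more between mice. The genotypes did not overlap in 186 regions that were higher and 259 that were lower in V321L, and over all shared regions tested these shares were 2.1% and 1.9%.

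The called region covered the starts of *Mpst* and *Tst*, neighbouring genes of a pair of sulfurtransferases that handle sulfur in mitochondria and the cytosol (chr15:78405730-78406902, mm10). WT F1, F2, M1 and M2 had 31.2, 22.9, 74.7 and 35.3 ATAC CPM, and V321L F1, F2, M1 and M2 had 82.0, 95.6, 85.9 and 52.7. WT M1 stood with the V321L mice, so the genotypes overlapped. WT mice had a mean of 41.1 ± 23.0 and V321L mice one of 79.0 ± 18.5 (SD, 4 mice per genotype), which gave a log2 change of 1.01 ± 0.19 (SE, edgeR adjusted p = 0.0161). This SE is drawn in part from all regions, so it can understate the spread between mice at this region. The width that peaks covered there moved with the ATAC level, at a mean of 560 bp in WT and 966 bp in V321L mice. Only counts inside a library's own peaks were included. The covered width was 398, 466, 849 and 527 bp in WT F1, F2, M1 and M2. In V321L F1, F2, M1 and M2 this width was 971, 966, 954 and 974 bp. Its part in the difference was not tested. Without WT F1, WT F2, WT M2 or V321L F2 the region lost its call, with log2 changes of 0.92, 0.76, 0.96 and 0.89 and edgeR adjusted p of 0.125, 0.346, 0.151 and 0.0977. The RNA of *Mpst*, 0.455 CPM in WT and 2.38 in V321L mice, was too low to be tested.

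No other region passed, and the ones next in line by unadjusted p are given as values. The region of *Limk1*, which encodes a kinase of the actin regulator cofilin, had 65.1, 44.1, 68.1 and 53.4 ATAC CPM in WT mice and 89.2, 75.8, 112 and 100 in V321L mice (chr5:134688380-134689369). All 4 V321L mice were above all 4 WT mice, with a log2 difference of 0.71 ± 0.15 (SE, edgeR adjusted p = 0.0618). *Polq*, which encodes the DNA polymerase of theta-mediated end joining, had 22.3, 21.7, 26.5 and 18.1 in WT and 40.5, 43.9, 39.4 and 42.4 in V321L mice. Again the genotypes did not overlap, with a log2 difference of 0.90 ± 0.21 (SE, edgeR adjusted p = 0.145), while the RNA of *Polq* fell by 1.45 ± 0.18 on the log2 scale (SE, adjusted p = 9.28e-06). The region shared by *Ina*, a neuronal intermediate filament gene, and *Nt5c2* had 73.1, 77.9, 66.2 and 69.9 in WT and 42.5, 60.3, 41.8 and 45.0 in V321L mice (log2 -0.60 ± 0.16, edgeR adjusted p = 0.28). Its covered width was 880 bp in WT and 649 bp in V321L mice. The 16 regions named by this order had log2 differences between -0.91 and 1.23, and since they were chosen by p on these values, their lack of overlap is no further result. The others included those near *Ralgps2*, *Ddx52*, *Fgfrl1*, *Cdca7l*, *Rhobtb1*, *Fam98c*, *Elf1*, *BC005537*, *Fam98b*, *Cacng6* and *1700025G04Rik*.

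**Figure D3:**
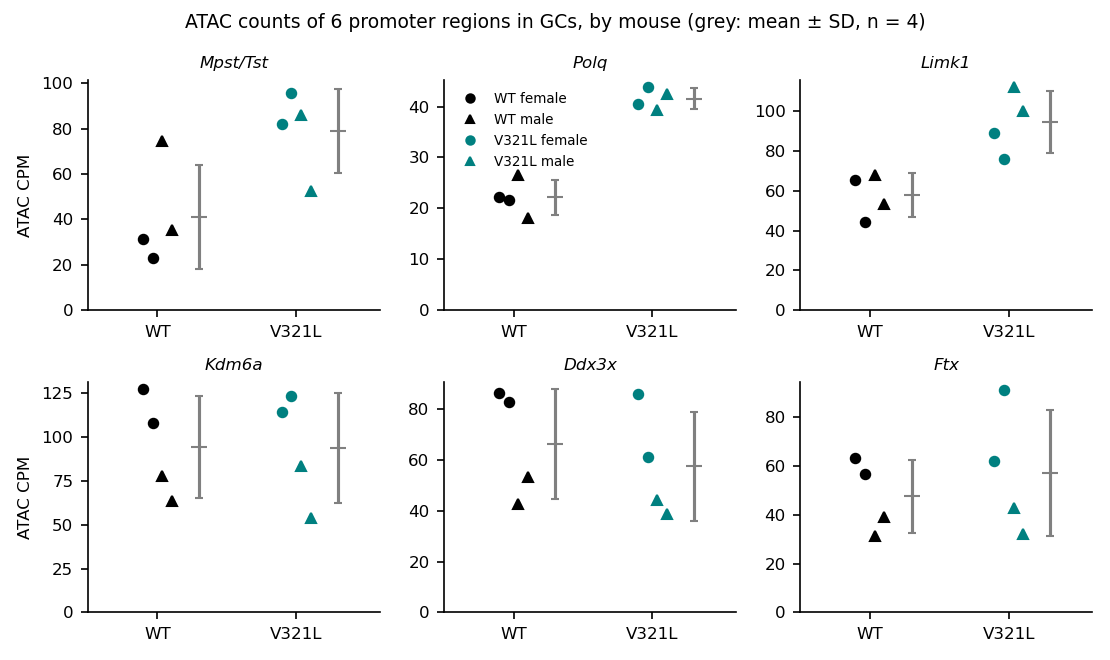
ATAC CPM in GCs (y axis, from 0) at 6 promoter regions, with a point per mouse for WT (black) and V321L (teal), circles for females and triangles for males, and the mean ± SD (grey, n = 4). In the top row *Mpst*/*Tst* overlaps between the genotypes through WT M1 at 74.7, and *Polq* and *Limk1* do not overlap but were not called. In the bottom row females (circles) lie above males (triangles) in each genotype.

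The RNA of the genes at these regions changed far more often. Of 9675 such genes tested in the same GCs, 3836 rose and 2836 fell in V321L (39.6% and 29.3%, edgeR adjusted p under 0.05), and 2451 rose and 832 fell by over 1 on the log2 scale. Over all 12202 genes tested, 38.1% rose and 31.3% fell. Among 2236 tested genes with no shared promoter region, 25% rose and 43.6% fell. The split depends on the scaling. With library size in place of TMM normalization 5462 of the 9675 rose and 1460 fell, and the median change of all genes moved from 0.12 to 0.56. The libraries also differed in RNA quality and depth, since the median mitochondrial share of GCs ran from 0.0647% to 0.136% in WT mice and from 0.297% to 1.05% in V321L mice. The median UMI count per GC ran from 1195 to 2127 in WT mice and from 3387.5 to 4717 in V321L mice, and markers of 3 other classes were higher in the V321L GCs without overlap. These were oligodendrocyte markers (above), GABAergic markers, at 0.474% to 0.656% of marker UMIs in WT and 0.954% to 1.59% in V321L mice, and neuroblast markers, at 0.801% to 0.934% and 1.11% to 1.37%. The part of quality, depth and markers in the RNA differences was not tested. With each GC thinned to 1000 UMIs, 2523 of these genes rose and 2210 fell. Shares over all genes were not computed for these counts, for those under library size or for changes over 1. A difference from other genes therefore cannot be read from these 3 sets of counts.

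No gene was called in both its RNA and the ATAC counts of its promoter. Each gene was paired with a region that had no other TSS within 1 kb, which gave 6720 pairs tested in both. In these, the RNA of 2586 genes rose and that of 2083 fell, and 0 pairs were called in both. The only region called in ATAC, that of *Mpst* and *Tst*, served both genes and was not among the pairs. No pair could therefore be called in both, whatever its RNA, and the count of 0 holds no further result. In the 1618 pairs whose RNA rose by over 1 (median 1.73), the median log2 change in ATAC was -0.05, with quartiles of -0.16 and 0.09. In the 610 pairs whose RNA fell by over 1 (median -1.19), it was 0.02, with quartiles of -0.13 and 0.19. ATAC was higher in V321L in 40.9% of the first and in 52.5% of the second. Across the pairs the Pearson correlation was -0.08 and the Spearman correlation -0.08 (n = 6720 genes of the same 8 libraries, a description only). For 1594 of the 1618 and 565 of the 610 the ATAC estimate ± 2 SE lay within 1 of 0, so a 2-fold change of the promoter count lay outside the interval in most of them.

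**Figure D4:**
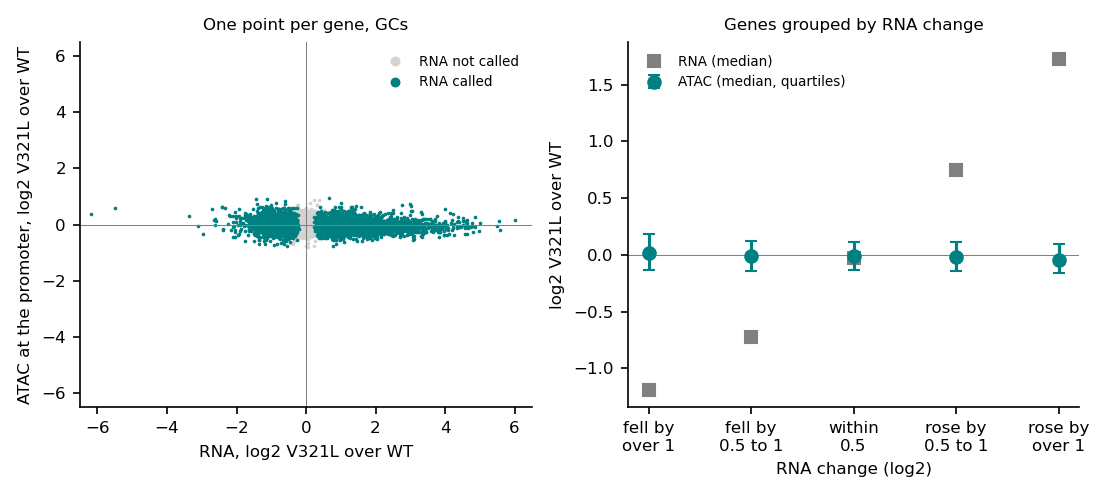
Left: log2 change of RNA (x axis) and of promoter ATAC counts (y axis, same scale), V321L over WT GCs, with a point for each of 6720 genes, in teal where the RNA was called. Right: the same genes in 5 groups of RNA change, with the median RNA change (grey squares) and the median ATAC change with quartiles (teal). The ATAC medians lie between -0.05 and 0.02 while the RNA medians run from -1.19 to 1.73.

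Among the 8 genes with the largest rises, *Mif*, which encodes a small inflammatory cytokine, had 2.03, 1.41, 4.64 and 1.55 RNA CPM in WT and 115, 61.5, 45.2 and 116 in V321L mice, a log2 change of 4.86 ± 0.41 (SE, edgeR adjusted p = 4.95e-07). Its promoter region (chr10:75859725-75860650) had 35.7, 41.7, 40.7 and 36.9 ATAC CPM in WT and 66.4, 31.0, 48.9 and 46.3 in V321L mice. The RNA values were apart and the ATAC values overlapped, with an ATAC log2 change of 0.28 ± 0.19 (SE, adjusted p = 0.814). *Timm13*, an import chaperone of the mitochondrial intermembrane space, had 1.35, 0.563, 2.65 and 0.932 RNA CPM in WT and 64.4, 38.1, 27.3 and 62.5 in V321L mice, while its promoter had 90.1, 106, 116 and 119 ATAC CPM in WT and 89.2, 97.3, 122 and 102 in V321L mice (log2 -0.09 ± 0.14, adjusted p = 0.941). *Tomm6*, *Micos13* and *Uqcc3*, of the outer membrane translocase, the crista junction complex and complex III assembly, rose by 4.81, 4.79 and 5.02, with ATAC log2 changes of -0.26, 0.06 and 0.06. *Gm1673*, *Rprml* and *Smim26* rose by 5.55, 4.80 and 4.67, and their ATAC log2 changes were 0.11, -0.05 and -0.13.

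The 8 largest falls were smaller in size. *Trps1*, a zinc finger transcription factor gene, had 162, 236, 273 and 241 RNA CPM in WT and 62.4, 51.2, 58.2 and 61.1 in V321L mice (log2 -2.41 ± 0.15, SE, edgeR adjusted p = 9.37e-08). Its promoter had 13.4, 11.5, 15.1 and 9.4 ATAC CPM in WT and 18.7, 12.1, 16.7 and 30.8 in V321L mice, values that overlapped (log2 0.62 ± 0.32, adjusted p = 0.739). *Slc8a1*, the sodium-calcium exchanger gene, had 262, 348, 237 and 234 RNA CPM in WT and 81.8, 77.4, 109 and 60.7 in V321L mice (log2 -2.17 ± 0.20). Its promoter had 17.8, 18.1, 16.1 and 22.0 ATAC CPM in WT and 18.7, 26.7, 22.7 and 25.7 in V321L mice (log2 0.32 ± 0.26, adjusted p = 0.857). *Sdk1*, an adhesion molecule gene, and *Gpc6*, a glypican gene, had RNA log2 changes of -2.22 and -2.71, with ATAC log2 differences of 0.35 and 0.55. *Adamtsl1*, *Leng9*, *Chn1os1* and *Gm26917* had RNA log2 changes of -2.33, -2.63, -3.12 and -3.38, with ATAC log2 differences of 0.59, 0.00, -0.07 and 0.30. Of the 16 genes named here, the estimates of ATAC and RNA had the same sign in 6, and none of their regions was called. *Leng9* is among the 6 by sign only, since its ATAC log2 change was -0.002 ± 0.17 (SE).

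Gene groups were read against the 38.1% of all genes tested that rose and the 31.3% that fell. These shares hold for TMM. Under library size 5462 of the 9675 genes at promoter regions rose and 1460 fell, and the median over all genes was 0.56. Of 12 glycolysis genes 11 rose in RNA and *Pfkp* fell, by 0.36 on the log2 scale under TMM and not under library size, where its change was 0.09 (median log2 change of the group 2.08, against 0.12 over all genes tested), and 0 of their 14 promoter regions were called in ATAC (median -0.07, against 0.01 over all shared regions). *Gapdh* rose by 3.43 ± 0.35 in RNA (SE) and its region went from 105 ± 1.90 ATAC CPM in WT to 86.5 ± 16.5 in V321L mice (SD, 4 mice each, log2 -0.27 ± 0.14). Of 10 chaperone genes 8 rose and 0 fell in RNA (median 0.87), with 0 of 9 regions called (median -0.12). *Hspa8*, the constitutive Hsp70, rose by 1.35 ± 0.24, and its region had 219 ± 28.4 and 208 ± 30.3 ATAC CPM. Of 7 immediate early genes with enough RNA 5 rose and 0 fell (median 1.73), with 0 of the 18 regions of this list called (median -0.04). *Jund* rose by 3.19 ± 0.33, and its region had 148 ± 19.1 ATAC CPM in WT and 131 ± 9.61 in V321L mice.

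PRC2 is the complex that methylates histone H3 at lysine 27. Of 9 subunits and partners with enough RNA, *Rbbp4* rose and 5 fell under TMM (median -0.44), while under library size 4 rose and 3 fell (median 0.00). The calls and the sign of the median thus rested on the scaling. Under both, the median of the group lay below that of all genes tested, which was 0.12 under TMM and 0.56 under library size. *Jarid2*, *Aebp2* and *Mtf2* fell under both. In ATAC, 0 of 10 regions were called (median -0.06). *Ezh2*, a catalytic subunit, had RNA log2 changes of -0.44 ± 0.13 (SE) under TMM, which was called, and 0.00 under library size, which was not, and its region had 70.8 ± 2.82 ATAC CPM in WT against 69.0 ± 13.1 in V321L mice (log2 -0.05 ± 0.15). In neuregulin signaling 4 genes rose and 3 fell of 9 (median 0.14), shares near those over all genes, and under library size 5 rose and 2 fell. *Adam17*, a sheddase gene, lost its call there (log2 -0.44 under TMM and 0.01 under library size). In ATAC 0 of 9 regions were called (median 0.10). Those that rose under TMM were *Psenen*, *Aph1a*, *Ncstn* and *Psen2*, all parts of the γ-secretase that frees the intracellular domain of Nrg1. Their ATAC log2 differences were 0.04, 0.19, 0.18 and -0.06. *Nrg1* itself and its receptors *Erbb2*, *Erbb3* and *Erbb4* had no region of this kind.

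Of 15 genes that the study names as enriched in semilunar GCs, a GC subtype, 9 had a promoter region, and *Penk*, *Sorcs3*, *Nrg1*, *Bdnf*, *Grp* and *Grm8* had none. That list was drawn from these mice and is no independent evidence. *Scg2*, *Mdh1*, *Pcdh8*, *Chgb* and *Nptx2* rose in RNA by 1.23, 2.02, 1.28, 1.11 and 1.68, and 0 of the 9 fell (median 1.11). None of the 9 regions was called (median -0.11), and *Pcdh8* had 94.8 ± 11.8 ATAC CPM in WT and 74.1 ± 6.75 in V321L mice (log2 -0.37 ± 0.14). Of 14 GC genes 11 had a region, 4 rose and 3 fell in RNA (median 0.08), and 0 were called in ATAC (median -0.24). The RNA of several of them also served to choose the GCs. *C1ql2*, a secreted C1q-like protein of GCs, rose by 3.33 ± 0.19 with 67.3 ± 9.39 and 64.8 ± 14.7 ATAC CPM, while *Rfx3* fell by 1.59 ± 0.15 with 168 ± 13.9 and 143 ± 16.6. Of 10 neuronal genes 7 had 9 regions, 4 rose and 2 fell in RNA (median 0.38), and 0 regions were called (median -0.09).

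Many more regions differed between classes of nuclei than between the genotypes. GCs and oligodendrocytes of the same 7 mice were compared with mouse as a block, with 529 oligodendrocyte nuclei in all. Of 10558 promoter regions tested, 2571 (24.4%) were higher in GCs and 400 (3.79%) lower (edgeR adjusted p under 0.05). Over all shared regions 49.3% were higher and 3.46% lower. Peaks were called on nuclei that were mostly GCs, so regions open only in glia can be missing. The excess of higher over lower regions cannot be told apart from this choice of regions. The split depends on the scaling, since with library size in place of TMM 1292 were higher and 2252 lower. Over all 22585 shared regions tested, 8662 were then higher and 3014 lower. With the 4 mice that had at least 50 oligodendrocyte nuclei, all V321L, 1304 of 10401 were higher and 1060 lower (12.5% and 10.2%). Over all 21396 shared regions tested in these mice, 7855 were higher and 1525 lower. The median count of a region over all oligodendrocytes was 32, so single regions rest on few fragments. Against the 629 astrocyte nuclei of 8 mice, 1779 of 10617 (16.8%) were higher and 1128 (10.6%) lower in GCs, while over all shared regions 41.7% were higher and 8.09% lower. With library size the counts were 1176 and 2399, and 8230 and 3392 over all 22789 shared regions tested. There were 1256 promoter regions higher in GCs than in both kinds of glia, 739 of them also with library size, and 248 lower, all of them also with library size. Library size moved the median log2 difference of the promoter regions from 0.37 to -0.27 against oligodendrocytes and from 0.10 to -0.20 against astrocytes. That the lower regions kept their calls is therefore no check. The shares over all shared regions were not computed for these counts against both glia.

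The regions that were highest in GCs against oligodendrocytes had no count in any of the 529 oligodendrocytes. Such regions could enter through the GCs alone, while regions open only in oligodendrocytes can be missing. Arhgef7 protein activates Rac and Cdc42, and its region (chr8:11727456-11728330) had a lowest, median and highest value of 69.2, 80.1 and 104 ATAC CPM over the GCs of 7 mice. For a count of 0, a limit of 3 counts over the group (5.67 ATAC CPM) was used, which holds for independent counts only. Counts came mostly in pairs, and the limit leaves out the spread between mice, so folds against it are not lower bounds. The GC level was 14.6 times this limit. The RNA was also higher in GCs, by 2.25 ± 0.41 on the log2 scale (SE, edgeR adjusted p = 3.95e-07). *Cbfa2t3*, a transcriptional corepressor gene, and *Brinp1* and *Psd*, of neuronal proteins, were at 12.1, 11.1 and 11.1 times the limit. *Eef1a2*, the elongation factor of neurons and muscle, and *Cacng6* were at 11.7 and 15.4 times the limit. The RNA of *Cbfa2t3*, *Brinp1* and *Psd* was higher in GCs by 3.25, 3.08 and 1.06, and that of *Eef1a2* did not pass (0.81 ± 0.36, adjusted p = 0.0589). That of *Cacng6* was too low to be tested. These 6 regions were called under both scalings.

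Lower in GCs was first of all a region at a start of the adiponectin receptor gene *Adipor2* other than the RefSeq one (chr6:119418395-119419684), with 0, 1.78 and 5.19 ATAC CPM in GCs and 62.5, 154 and 300 in oligodendrocytes (lowest, median and highest of 7 mice). The values were apart in all 7 mice, with a log2 difference of -5.45 ± 0.50 (SE, edgeR adjusted p = 7.22e-25) and an RNA difference of -4.02 ± 0.41. The regions named against oligodendrocytes were chosen by the size of the difference and the same direction in all 7 mice. Their lack of overlap between the classes is therefore no further result. *Ptgds*, the prostaglandin D synthase gene that oligodendrocytes express strongly, had 0, 4.46 and 16.6 in GCs and 109, 218 and 312 in oligodendrocytes, and its RNA differed by -6.44 ± 0.55. The other 4 named regions were near *Snx8*, *Sorbs3*, *Hivep1* and *2210409D07Rik*, with log2 differences between -4.21 and -3.90 in ATAC. Of 9 oligodendrocyte genes, *Olig1*, a transcription factor of the lineage, alone had a region of this kind, and it was lower in GCs by 4.67 ± 0.49 on the log2 scale.

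Against astrocytes, *March11*, *Rnf112*, *Sh2d7*, *Fam163b*, *Epor* and *Gm44089* had no count in the 629 astrocytes. These regions, too, could enter through the GCs alone. Their GC levels were 14.5, 13.2, 9.57, 9.10, 8.67 and 8.89 times the limit of 3 counts (4.77 ATAC CPM), again not lower bounds. The RNA of *March11*, a ubiquitin ligase gene, and of *Rnf112*, a GTPase gene of neurons, was higher in GCs by 3.90 ± 0.49 and 3.19 ± 0.36. That of *Sh2d7*, *Epor* and *Gm44089* was too low to be tested. The RNA of *Fam163b* was higher by 3.35 ± 0.37, but it was among the markers that chose the GCs, so its RNA is no finding. Lower in GCs were *Zfp217*, a zinc finger gene, with 0, 1.18 and 6.22 ATAC CPM in GCs and 37.6, 122 and 261 in astrocytes, and *Id3*, an inhibitor of basic helix-loop-helix factors, with 0.892, 3.08 and 7.71 against 43.5, 140 and 203 (lowest, median and highest of 8 mice). Their log2 differences were -5.22 ± 0.50 and -5.00 ± 0.44 in ATAC and -5.24 ± 0.79 and -5.67 ± 0.29 in RNA. *Epas1*, a hypoxia-inducible factor, *S1pr1*, a sphingosine-1-phosphate receptor, *Sash1* and *A330093E20Rik* followed, with ATAC log2 differences of -4.76, -4.41, -4.32 and -4.30. The rule that chose these 12 regions required the same direction in all 8 mice, so the lack of overlap between the classes is no further result.

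Between classes the calls in RNA were set beside those in the promoter. Over the 6794 genes paired with a region of their own and tested against oligodendrocytes, the RNA of 26.5% was called higher in GCs and that of 11.9% lower. Of 1558 genes with a region of their own that was higher in GCs than in oligodendrocytes, the RNA was called higher for 905 and lower for 30, and of 262 with a lower region it was called lower for 190 and higher for 8. With the regions called under library size these counts were 573 and 16 of 741, and 470 and 148 of 1506. Against astrocytes, where the RNA of 29.6% of 6495 genes was higher and that of 15.3% lower, 673 of 1013 and 377 of 708 were called the same way, and 33 and 50 the opposite way. Under library size 493 of 642 and 535 of 1515 were called the same way, and 18 and 191 the opposite way. The Pearson correlation across genes was 0.57 against oligodendrocytes (n = 6794 genes) and 0.59 against astrocytes (n = 6495), given as descriptions, since ATAC and RNA came from the same few nuclei. For GABAergic neurons, with 41 nuclei in 3 mice, 2 of 9677 promoter regions were higher in GCs and 0 lower (edgeR adjusted p under 0.05, over all shared regions 0.0113% and 0%). They were *Gm10800* and *AC149090.1*, 2 of the 4 with the highest levels, and 0 were called with library size. The median count of a region over all GABAergic neurons was 2, so this comparison was limited by depth.

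The gene groups are given with calls under TMM and then, in parentheses, under library size. Over all shared regions tested, 49.3% were higher and 3.46% lower in GCs than in oligodendrocytes, and over the promoter regions 24.4% and 3.79% (12.2% and 21.3% under library size). Against astrocytes these were 41.7% and 8.09%, and 16.8% and 10.6% (11.1% and 22.6%). Of 11 GC gene regions 9 were higher and 0 lower in GCs than in oligodendrocytes (8 and 1), and 8 and 0 against astrocytes (7 and 2). *Bcl11b*, a transcription factor of neurons, had 3.76 and 3.69 as log2 differences against the 2 classes, and *Rfx3* 0.61 and -0.16. Of 9 neuronal gene regions 7 were higher and 0 lower against oligodendrocytes (7 and 1) and 7 and 0 against astrocytes (7 and 0). *Map2*, which encodes a microtubule protein of dendrites, had 2 regions, of which 1 had log2 differences of 0.08 and -0.26, while the other was at 4.09 against oligodendrocytes and had no count in astrocytes. Glycolysis regions were higher in 6 and lower in 0 of 14 against oligodendrocytes (3 and 0) and in 1 and 0 against astrocytes (0 and 3). Chaperone regions gave 1 and 0 of 9 (0 and 4) and 1 and 2 (0 and 4), PRC2 regions 0 and 0 of 10 (0 and 4) and 0 and 1 (0 and 4), and neuregulin signaling regions 0 and 0 of 9 (0 and 1) and 1 and 1 (0 and 1). In these 3 groups, and for glycolysis against astrocytes, no region was called higher under library size, and further ones were called lower. The regions of *Hspd1*, *Hspa5*, *Suz12* and *Adam10* were called lower against astrocytes under both scalings. Library size moves the differences toward lower values in GCs, so this is no check. Immediate early gene regions gave 7 and 2 of 18 (4 and 4) and 5 and 3 (5 and 5), led by *Npas4*, an activity-dependent factor of neurons, at 5.01 and 3.97, and with *Dusp1*, a phosphatase gene, at -1.55 and -2.23 in its lowest region. The single region near an astrocyte gene was that of *Slc1a2*, a glutamate transporter gene, at 2.30 against oligodendrocytes and -1.92 against astrocytes, both called. Regions of genes enriched in semilunar GCs gave 6 and 0 of 9 (4 and 1) and 5 and 1 (5 and 1).

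**Figure D5:**
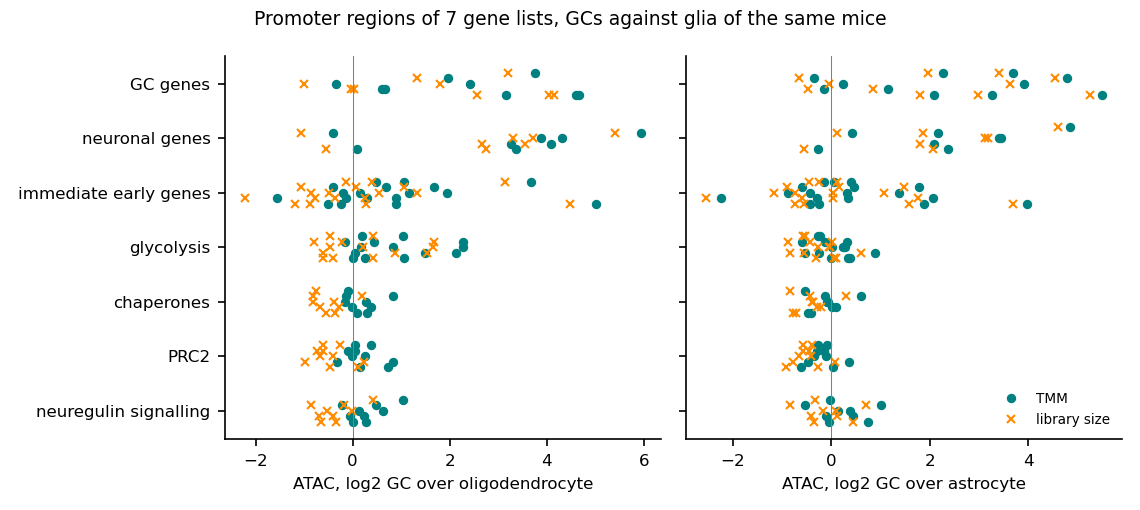
Log2 difference in ATAC counts (x axis) between GCs and oligodendrocytes (left) or astrocytes (right) for each promoter region of 7 gene lists, under TMM normalization (teal circles) and under library size (orange crosses), with regions that had no glial count left out. Regions of GC and neuronal genes reach beyond 4, while those of chaperones and PRC2 lie around 0 and shift to the left under library size.

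In glia no promoter region was called between V321L and WT. In oligodendrocytes 0 of 735 tested regions passed (edgeR, 33 at an unadjusted p under 0.05, over all shared regions tested 0% higher and 0% lower), and in astrocytes 0 of 1004 (51 at an unadjusted p under 0.05, over all shared regions 0% higher and 0.0865% lower). The median SE of the log2 change was 0.54 in oligodendrocytes and 0.36 in astrocytes, against 0.18 in GCs, so the intervals in glia were wider. WT mice gave between 8 and 30 oligodendrocytes each, of which the 8 of WT M1 were too few to be used, and V321L mice between 52 and 193.

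Between the sexes 3 of 10740 promoter regions in GCs were higher in females and 0 lower (edgeR with genotype as a covariate, adjusted p under 0.05, over all shared regions 0.016% and 0.004%), with 591 at an unadjusted p under 0.05. All 3 were on the X chromosome, where 337 regions were tested. *Kdm6a*, which encodes a histone H3 lysine 27 demethylase and escapes X inactivation, had 128, 108, 114 and 123 ATAC CPM in the 4 females and 77.6, 63.6, 83.5 and 54.0 in the 4 males (WT before V321L, log2 0.73 ± 0.14). *Ddx3x*, an RNA helicase gene that also escapes, had 86.5, 82.7, 86.1 and 61.2 in females and 42.6, 53.4, 44.2 and 38.6 in males (log2 0.78 ± 0.16). *Ftx*, a noncoding RNA gene of the X inactivation center, had 63.3, 56.8, 62.2 and 91.3 in females and 31.2, 39.3, 43.0 and 32.1 in males (log2 0.86 ± 0.17). In each of them all females lay above all males, and the adjusted p was 0.0327. The call was lost for all 3 without any 1 of the 4 WT mice or without V321L M2, and 1 or 2 were called without each of the others. *Eif2s3x* (56.4 ± 6.65 in females and 37.5 ± 5.44 in males, SD, n = 4 each) and *Kdm5c* (73.7 ± 5.43 and 47.8 ± 10.9) also had no overlap but were not called (adjusted p = 0.846 and 0.579). *Pbdc1* and *Utp14a*, the other 2 genes of the list of escape genes, overlapped, with log2 differences of 0.43 and -0.06. The median difference of the 337 X-linked regions was 0.00, and that of autosomal regions -0.05. The RNA of the 3 genes was higher in females by 0.49 ± 0.11, 0.17 ± 0.17 and 0.27 ± 0.11 for *Kdm6a*, *Ddx3x* and *Ftx*, and none was called. The effect of V321L did not differ between the sexes in any of 10771 regions tested (edgeR interaction term, 0 called, 365 at an unadjusted p under 0.05, over all shared regions 0% in either direction), with a median SE of 0.36.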

How the data were processed

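Reads were processed by the authors in Cell Ranger ARC, and mm10 is the build in the submitters' processing notes. The deposited matrices hold unnormalized counts per barcode, RNA UMIs for genes and ATAC counts for peaks called in each library separately, for all barcodes. Barcodes within the UMI, gene and mitochondrial limits of the study with at least 500 ATAC counts were taken as nuclei. A nucleus was put in a class with at least 3 UMIs of at least 2 of its marker genes and over 66.7% of its marker UMIs. *Adarb2*, *Tnr* and *St18* were left out of the gate after the data were seen. No doublet caller was run. The 4039 nuclei with no class were left out, and 899 of these had markers of 2 classes. Nuclei with markers of 2 classes were kept where a single class held over 66.7% of their marker UMIs.

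Peaks were merged by overlap, and the counts of a library's own peaks were summed within each merged region. The files give each gene 1 interval, read as running between its outermost TSSs, and a TSS was either end of it. Starts between these ends were not used. Nuclei were thinned to 1000 ATAC counts in shared regions, counts were summed per mouse and class (at least 10 nuclei), and tested with edgeR 4.0.16 in R 4.3.3 (quasi-likelihood, TMM, filterByExpr, Benjamini-Hochberg over all regions or genes, threshold 0.05). RNA UMIs of the same nuclei were tested likewise, unthinned. DESeq2 1.42.0 was the second tool. Levels are means over mice of ATAC counts scaled to counts in shared regions (CPM), and ± after a log2 value is its SE. The test was tested on simulated data.

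Regions named were the 8 rises and 8 falls with the lowest p (or called), the 8 genes with the largest RNA rise and fall at a mean of at least 10 CPM and a region of their own, the 6 largest class differences in each direction that went the same way in every mouse, all called between the sexes, and set gene lists. A few regions that this rule names are not reported here. The regions and lists were chosen with earlier results of these data known. The SE and p-values of edgeR rest on the spread between the mice, 1 library each, drawn in part from all regions or genes. For a single region they can therefore understate its own spread between mice. Positions are 1-based. RefSeq promoters are on GRCm38.p6, the same build as mm10.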

Additional observations from a re-analysis of the deposited data

Results flagged for a closer look

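The share of ATAC counts in promoter regions in V321L GCs held a mouse far from the rest. V321L M1, the library with the most ATAC counts, had 61.7%, and the other 3 V321L mice lay between 58.3% and 58.7%. The RNA of *Adamtsl1* in WT GCs held another, with 8.44 CPM in WT F1 and between 27.4 and 28.2 in the other 3 WT mice. In all, 104 groups of 4 mice were screened in this way, of which chance alone flags about 1 in 20.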

How the results depend on the processing

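The count of promoter regions called between the genotypes was 1. It was 2 with thinning to 2000 counts, all counts, library size, sex as a covariate or no upper limits on nuclei, 0 among regions whose covered width differed by less than 1.2 times, a limit that removes the called region itself, and between 0 and 3 when a mouse was left out. The *Mpst*/*Tst* region was past the threshold in 14 of 19 settings, with log2 changes between 0.76 and 1.44 and adjusted p up to 0.999 (DESeq2). The others called were *Polq* (thinning to 2000, all counts), *Limk1* (library size, sex as a covariate, without WT M1 or V321L F2), *AC149090.1* (DESeq2), and the regions of *Ralgps2*, *1700025G04Rik*, *Fam98c* and *Elf1* in single settings or without single mice. The cause was not tested. With the replicate number as a block it was 2 (*Mpst*/*Tst* and *Limk1*), and the RNA count of 6672 genes was 6628. The labels tie same-numbered mice by sex and number only. The correlation of their deviations (F1, F2, M1 and M2) was -0.01, 0.02, 0.12 and 0.02 in ATAC and 0.05, 0.24, -0.10 and 0.04 in RNA. With 2 mice per number these values cannot settle whether handling was shared, which was not tested. The block stands as a check. With all counts 1 gene, *Polq*, was called in both ATAC and RNA.

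Leaving out a mouse gave between 6233 and 6926 genes with changed RNA, a difference in the share of counts between -1.65 and -0.368 points, and between 0 and 2 regions called between the sexes. With 500 counts per nucleus 1913 regions were called between GCs and oligodendrocytes in place of 2971. For GABAergic neurons the count was 0 with a stricter gate and 0 with library size. Library size and the minimum of 50 nuclei in the class comparisons were chosen after seeing the data. So were the TSS read as the whole interval between the outermost TSSs of a gene, and the mice left out between the sexes. Depth limits the GABAergic neurons most, with a median of 2 counts per region, then oligodendrocytes (32) and astrocytes (36).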
